A study of Mus musculus with 12 samples.

Results

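Neuropeptide Y (Npy) and 3 of its receptors (Npy1r, Npy2r and Npy5r) were followed in the mouse hippocampus after seizures set off from the amygdala. Members were the probe sets, each a group of short array probes read as 1 value, whose annotated gene symbol was one of these 4 names. They were 6 of the 45141 probe sets in the table, or 4 of 17097 genes with a probe set of their own. One probe set each stood for Npy and Npy2r, and a pair each for Npy1r and Npy5r. Where a gene had several, the brighter one over all arrays gave its value. A filter on dim probe sets kept genes above the 30th percentile of an array on at least 3 arrays. Of the 4 members, 3 passed it and Npy2r did not.

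Kainic acid (KA), an agonist of a class of glutamate receptors, was placed in the amygdala at 0.3 µg in 0.2 µl of buffered saline. The injected side's hippocampus was collected 14 d or 8 h later. Lorazepam, a benzodiazepine that dampens seizures, was given at 6 mg/kg 40 min after KA. Controls were injected with 0.2 µl of vehicle at the same place, and the labels do not say whether lorazepam was given to them. This made 4 groups of 3 arrays, KA 14 d, control 14 d, KA 8 h and control 8 h. Strain, sex and age are not given in the sources used here, nor whether each array came from an animal of its own. P-values therefore measure the spread between these arrays, which may be technical.

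Neuropeptide Y is a short amidated peptide that hippocampal GABA neurons make and release together with GABA. In rodents, granule cells of the dentate gyrus, which hold little of it at rest, also make it after seizures. Y1 and Y5 receptors, encoded by Npy1r and Npy5r, mostly sit on the receiving neuron, while the Y2 receptor, encoded by Npy2r, is known as a presynaptic receptor that lowers glutamate release. All of them couple to inhibitory G proteins.

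The 250 bases before the annotated start are printed for Npy, the one member that rose after KA, and for Npy1r, the one receptor measured well above background. Both come from RefSeq on GRCm38.p6, where all 4 members had an entry. Capitals mark a GC box (GGGCGG) in Npy and an AP-1 site (TGANTCA) in Npy1r.
Npy promoter, chr6:49822460-49822709, plus strand: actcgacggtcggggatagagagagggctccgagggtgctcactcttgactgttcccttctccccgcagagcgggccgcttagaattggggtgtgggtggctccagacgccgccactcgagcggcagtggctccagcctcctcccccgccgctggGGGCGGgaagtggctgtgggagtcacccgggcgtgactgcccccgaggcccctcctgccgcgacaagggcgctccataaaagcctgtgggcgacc
Npy1r promoter, chr8:66697172-66697421, plus strand: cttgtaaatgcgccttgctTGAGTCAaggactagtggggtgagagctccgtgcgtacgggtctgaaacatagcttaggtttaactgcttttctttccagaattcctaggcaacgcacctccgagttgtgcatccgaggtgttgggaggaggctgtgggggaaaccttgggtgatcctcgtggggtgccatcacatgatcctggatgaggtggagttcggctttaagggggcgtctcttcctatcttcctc

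The Npy window was 69.2% G and C, against a median of 52.4% over 32851 mouse promoters of that length. The Npy1r window was 53.6% G and C. Both strands were searched for 6 motifs. The GC box began at position -95 from the Npy start and is in 32.7% of all promoters. The AP-1 site began at position -231 from the Npy1r start and is in 6.75% of them. An E box (CANNTG), in 66.2% of promoters, was matched in Npy1r, Npy2r and Npy5r and not in Npy. Neither the cyclic AMP response element (TGACGTCA, in 1.55%), nor the shorter TGACG that it contains (17.8%), nor TATAAA (12.4%) was matched in any of the 4 windows. A match describes the letters of the window and is no measurement of binding.

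Values are log2 intensities from the authors' table, whose scale no source used here states. The table had the range and near-equal array medians (4.90 to 4.95) of output from RMA, a method that corrects and levels arrays. Within a group, arrays correlated at 0.989 to 0.997 over probe sets. Some groups of arrays stood apart. Xist, transcribed from the inactive X chromosome of females, lay between 7.39 and 8.71 on the 3 KA 8 h arrays and between 4.19 and 4.67 on the other 9. On the Y chromosome, Eif2s3y and Kdm5d were 1.39 and 0.97 lower after KA at 8 h (limma adjusted p = 0.0010 and 0.0027). Uty, 0.24 lower, did not pass. Sex and KA therefore cannot be told apart at 8 h. The same limit holds for KA 14 d minus KA 8 h and for the 14 d change minus the 8 h change, which use those arrays. The time entry of the labels ran from 11 to 13 h for KA 8 h arrays and from 8 to 10 h for control 8 h arrays, against 8 h in every title. If that entry were the true time, hour and KA could not be told apart either.

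Npy rose after KA at both times. At 14 d its log2 level was 10.82, 9.59 and 10.57 on the KA arrays, against 8.92, 9.01 and 9.06 on the control arrays. The lowest KA array was above the highest control array. The mean was 10.33 ± 0.65 in KA 14 d hippocampi and 8.99 ± 0.07 in controls (SD, n = 3 each). The fitted difference of 1.33 ± 0.21 (log2, SE) is a 2.52-fold rise, with a 95% interval of 1.84 to 3.45-fold and a limma adjusted p of 0.0019. This SE and interval use a spread shared by all 4 groups. With only the 14 d groups fitted, the limma adjusted p was 0.019. Of the 13853 genes tested, 2.56% were called at 14 d at an adjusted p under 0.05, 1.99% higher and 0.57% lower, and 33 genes had a larger fitted rise than Npy. KA and control arrays did not overlap for 16.5% of genes.

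At 8 h the log2 level of Npy was 9.55, 9.90 and 9.74 on the KA arrays, against 8.68, 8.68 and 8.54 on the control arrays. Again every KA array was above every control array. The mean was 9.73 ± 0.18 in KA 8 h hippocampi and 8.63 ± 0.08 in controls (SD, n = 3 each). The difference of 1.10 ± 0.21 (log2, SE) is a 2.14-fold rise (95% interval 1.56 to 2.93-fold, limma adjusted p = 0.0021). At 8 h 17.5% of genes were called, 7.92% higher and 9.55% lower, and 156 genes rose more than Npy. The groups did not overlap for 33.8% of genes. In these whole hippocampi, more cells with Npy RNA and more Npy RNA per cell cannot be told apart.

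**Figure D1:**
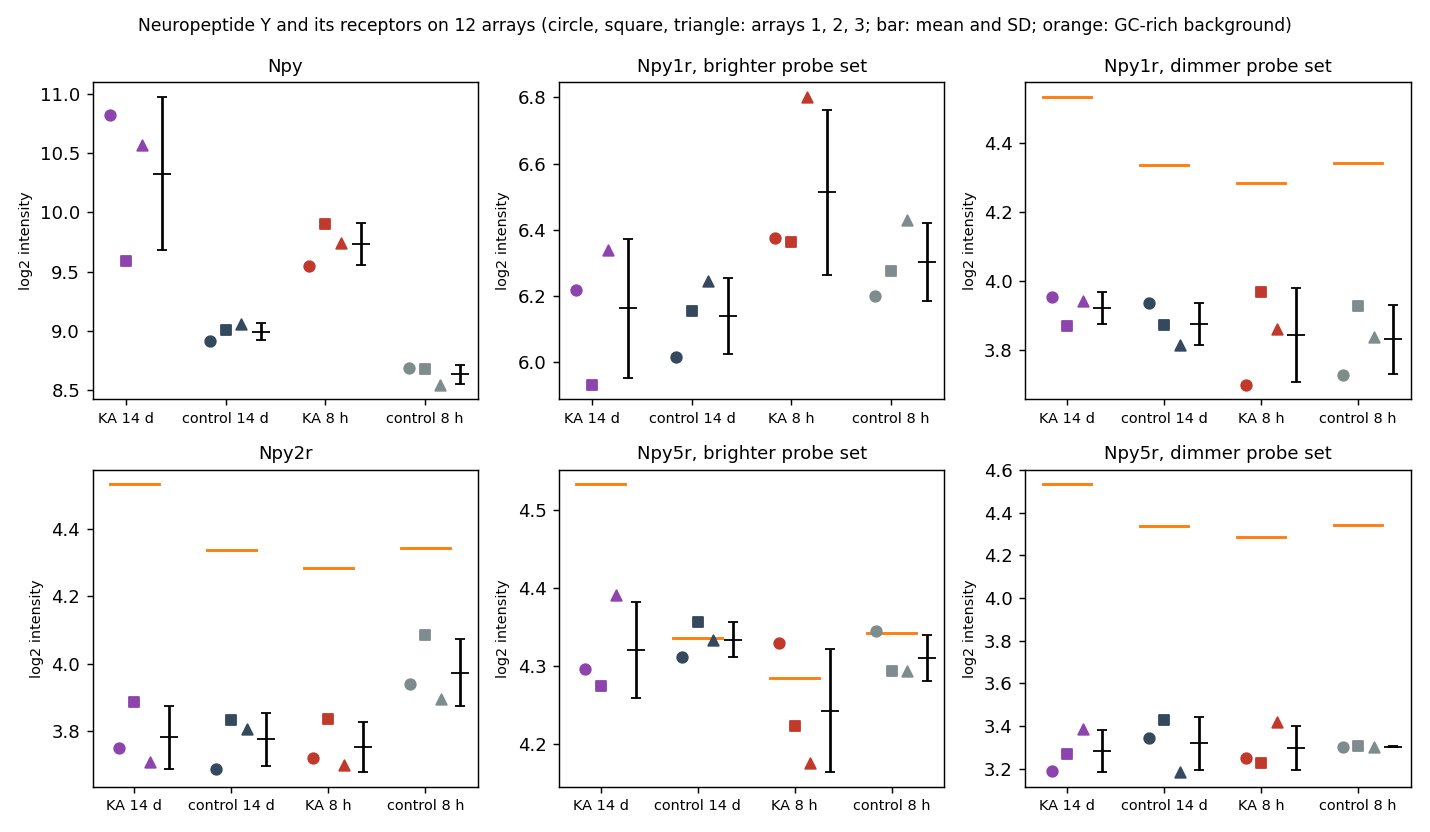
The 6 member probe sets on each of the 12 arrays, as log2 intensity with a scale of its own in each panel. Circles, squares and triangles are arrays 1, 2 and 3 of a group, bars are the mean and SD (n = 3), and orange lines, drawn for the dim probe sets, are the group mean of GC-rich background probe sets. Npy on KA arrays lies above controls at both times, and the second KA 14 d array, at 9.59, is the lowest of its group.

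The 2 rises of Npy differed by 0.24 ± 0.30 (log2, SE; 95% interval -0.41 to 0.88), which did not pass the test (limma adjusted p = 0.79). Of all genes, 5.52% passed it. This value rests on the second KA 14 d array. Without it the rise at 14 d was 1.70 and exceeded the rise at 8 h by 0.60 (adjusted p = 0.027). Without the first KA 14 d array the 2 rises differed by -0.01.

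The KA arrays at 14 d had a higher mean than those at 8 h, by 0.60 ± 0.21 (log2, SE), with a limma adjusted p of 0.0657. Their ranges overlapped, since the second KA 14 d array lay within the KA 8 h range. Without that array the difference was 0.96 (adjusted p = 4.45e-05). For this comparison 18.4% of genes were called. Control arrays at 14 d were all above those at 8 h, by a mean of 0.36 ± 0.21 (log2, SE). The limma adjusted p was 0.48, where 1.8% of genes were called. That SE uses a spread shared by all 4 groups and is no measure of control spread alone. The SD of Npy was 0.65 in KA 14 d, against 0.07 in control 14 d and 0.08 in control 8 h. Without the second KA 14 d array the limma adjusted p for controls was 0.07. Ordered by mean, the groups ran KA 14 d, KA 8 h, control 14 d and control 8 h. KA 8 h and control 14 d arrays did not overlap and were not tested against each other. Neither for these groups nor for the 2 control groups was the share of all genes without overlap counted. KA 14 d and KA 8 h overlapped, and neither they nor the 2 control groups differed past the test. KA 14 d and KA 8 h did differ past it with the replicate block (adjusted p = 0.043), under cyclic loess (0.049) and with array weights, and the 2 control groups did when fitted alone (0.029).

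**Figure D2:**
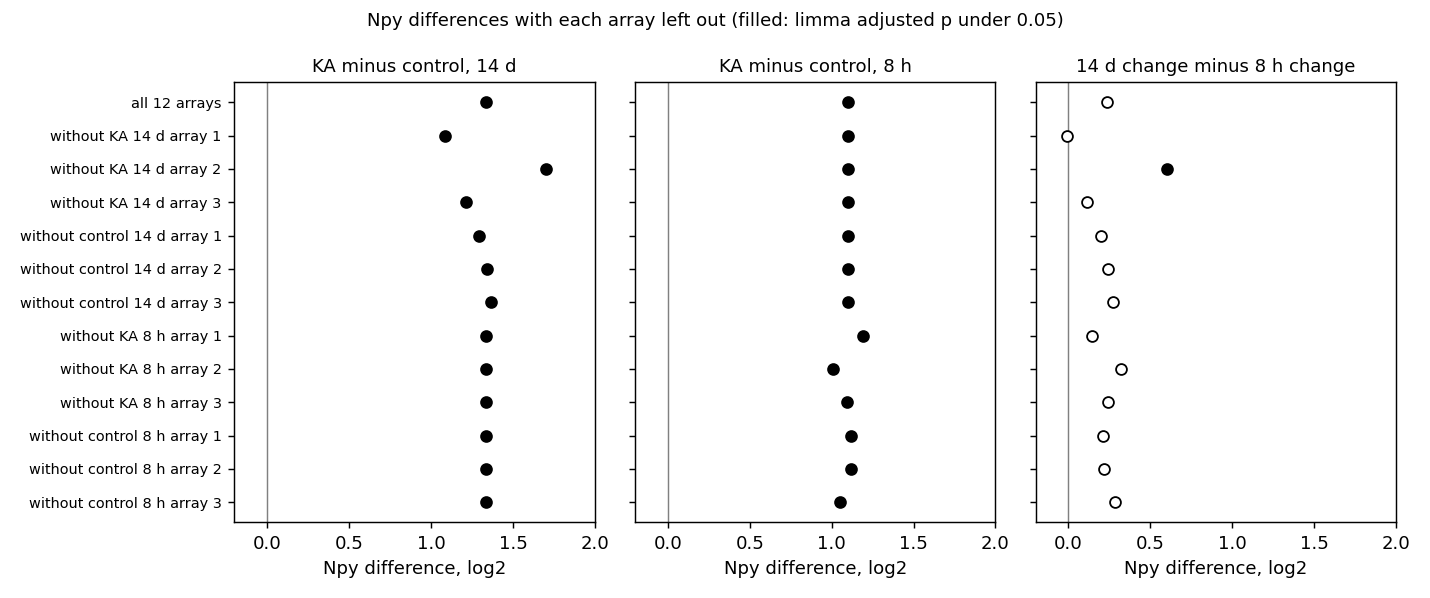
Fitted log2 differences of Npy with all 12 arrays and with each array left out in turn, for KA minus control at 14 d, at 8 h, and for the 14 d change minus the 8 h change. Filled points have a limma adjusted p under 0.05. Both KA changes stay filled throughout, between 1.09 and 1.70 at 14 d and between 1.01 and 1.19 at 8 h, while the difference of the changes is filled only without the second KA 14 d array.

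None of the 3 receptor genes passed the test in either comparison of KA with control. Npy1r, the Y1 receptor, was the receptor with clear signal: its brighter probe set, like that of Npy, was above all 23 background probe sets on all 12 arrays. At 14 d it stood at 6.22, 5.93 and 6.34 on the KA arrays, against 6.02, 6.16 and 6.25 on the controls. At 8 h it stood at 6.37, 6.36 and 6.80 on the KA arrays, against 6.20, 6.28 and 6.43 on the controls. The groups overlapped at both times. The difference was 0.02 (log2, 95% interval -0.25 to 0.30, limma adjusted p = 0.97) at 14 d and 0.21 (95% interval -0.06 to 0.48, adjusted p = 0.32) at 8 h. These intervals leave room for changes of up to 1.23-fold higher at 14 d and 1.40-fold higher at 8 h. Between same-numbered arrays at 8 h KA was higher in all 3, by 0.17, 0.087 and 0.37. With the replicate block the limma adjusted p of Npy1r was 0.12. Such differences also kept their sign for Npy2r (-0.22, -0.25 and -0.20) and Npy5r (-0.014, -0.071 and -0.12), both near background. The labels state no pairing of arrays. For Npy2r any matching keeps the sign, since its KA and control arrays at 8 h did not overlap. The share of all genes with like signs in all 3 was not counted.

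The third array had the highest Npy1r level of its group in all 4 groups. The level on KA 14 d arrays was 0.35 ± 0.13 (log2, SE) below that on KA 8 h arrays, with a limma adjusted p of 0.0721. The dimmer Npy1r probe set stayed between 3.70 and 3.97 on all arrays, below the filter.

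Npy2r, the Y2 receptor, stayed between 3.69 and 4.09 on all arrays. It was below the mean of the GC-rich background probe sets (4.10 to 4.68) on all 12 and above the mean of less GC-rich ones (3.07 to 3.18). At 14 d it read 3.75, 3.89 and 3.71 on the KA arrays, against 3.69, 3.83 and 3.81 on the controls, and the groups overlapped. At 8 h it read 3.72, 3.84 and 3.70 on the KA arrays, against 3.94, 4.09 and 3.89 on the controls, and every KA array was below every control array. The groups at 8 h did not overlap for 33.8% of all genes. Control 14 d arrays were below control 8 h arrays by a like amount, -0.20 ± 0.08 (log2, SE; limma adjusted p = 0.29, unadjusted p = 0.0267). In the fit with no filter the difference at 8 h was -0.22 ± 0.08 (log2, SE; 95% interval -0.39 to -0.05), with a limma adjusted p of 0.0857 and an unadjusted p of 0.0148. At 14 d it was 0.01 (95% interval -0.17 to 0.18, adjusted p = 0.99). The second array had the highest Npy2r level of its group in all 4 groups. How many of all genes have this order was not counted.

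Npy5r, the Y5 receptor, lay near background too. It was at 4.30, 4.27 and 4.39 on KA 14 d arrays, against 4.31, 4.36 and 4.33 on control 14 d arrays. It was at 4.33, 4.22 and 4.18 on KA 8 h arrays, against 4.34, 4.29 and 4.29 on control 8 h arrays. The groups overlapped at both times, and the brighter probe set was above the GC-rich background mean on 5 of 12 arrays. The difference was -0.01 (log2, 95% interval -0.17 to 0.15, limma adjusted p = 0.97) at 14 d and -0.07 (95% interval -0.23 to 0.09, adjusted p = 0.63) at 8 h. The dimmer probe set read 3.19 to 3.43. Npy1r and Npy5r are neighbours on opposite strands of chromosome 8.

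**Figure D3:**
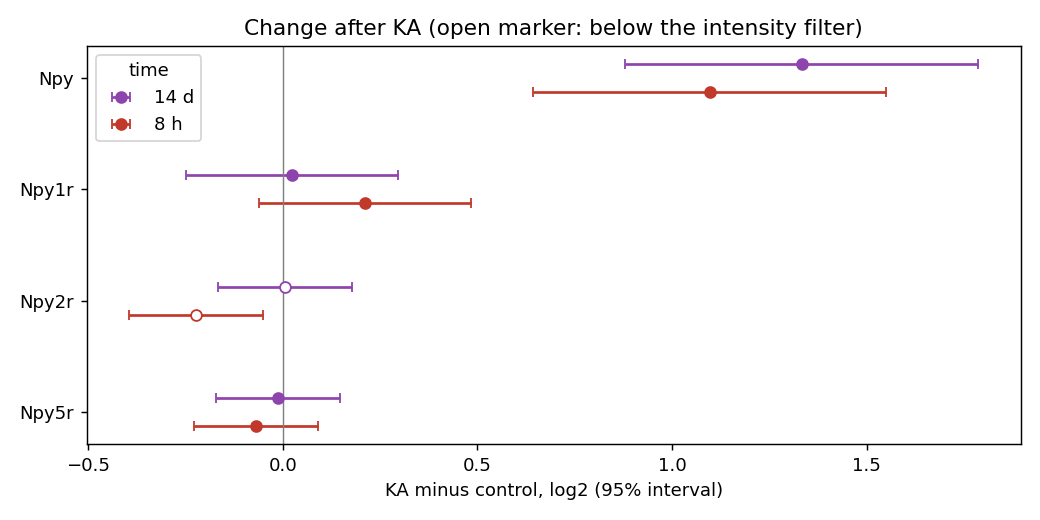
KA minus control on the log2 scale for the 4 members at 14 d and at 8 h, with 95% intervals from limma. Npy lies at 1.33 and 1.10 with intervals clear of 0, the intervals of Npy1r and Npy5r hold 0, and Npy2r is drawn open because it came from the fit with no filter.

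The remaining family members gave no call. Peptide YY (Pyy, 4.97 to 5.38) and pancreatic polypeptide (Ppy, 4.79 to 5.43), the gut and pancreas peptides of the family, passed the filter. Pyy differed by -0.01 at 14 d and -0.07 at 8 h, and Ppy by 0.04 and 0.07 (log2, limma adjusted p from 0.77 to 0.99). Npy4r, the receptor for pancreatic polypeptide, and Npy6r did not pass the filter, at 3.54 to 3.89 and 3.17 to 3.40.

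Of 12 tested genes for peptide processing, release and breakdown, 0 passed limma's test at 14 d (4 had an unadjusted p under 0.05), while at 8 h 2 rose and 2 fell (median log2 difference -0.05, against -0.02 over all genes). The shares called over all genes were 2.56% at 14 d and 17.5% at 8 h. Pcsk1, the convertase that cleaves prohormones, stood at 8.20, 8.09 and 8.11 on KA 8 h arrays, against 5.82, 6.01 and 6.05 on controls, a rise of 2.18 (log2). Its difference at 14 d was -0.03 (adjusted p = 0.95). Pam, the enzyme that amidates peptides, rose by 0.87 at 8 h (limma adjusted p = 0.0003). Cadps and Cadps2, which prime dense-core vesicles for release, each fell by 0.47 at 8 h (adjusted p = 0.021 and 0.0027). Cpe, the carboxypeptidase that trims the cleaved peptide, differed by 0.03 at 8 h, and Dpp4, which cuts the first residues off neuropeptide Y, by -0.04, and neither passed. The call of Cadps was lost without KA 8 h array 1 or 2 or control 8 h array 2 or 3.

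Of 16 genes of inhibitory G protein signalling, through which all Y receptors act, 0 passed limma's test at 14 d (3 had an unadjusted p under 0.05) and 6 passed at 8 h, with a median of -0.18, beside 2.56% and 17.5% of all genes. Kcnj6, a subunit of the potassium channel that these G proteins open, rose by 0.40 (limma adjusted p = 0.017) at 8 h. Kcnj9, another subunit, fell by 0.48 (adjusted p = 0.0047). Adcy8 rose by 0.33 (adjusted p = 0.038), while the adenylyl cyclases Adcy1 and Adcy2 fell by 0.35 and 0.30 (adjusted p = 0.019 and 0.016) and Gnaz, an inhibitory G protein subunit, by 0.32 (adjusted p = 0.031). With each array left out in turn, between 0 and 2 of the 16 were higher and between 1 and 5 lower, both Adcy8 and Kcnj6 losing their calls without control 8 h array 1 or KA 8 h array 1 or 3.

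Other neuropeptide genes, from a list chosen with the results known, were set beside Npy. Of 13 tested, 2 rose at 14 d and 6 at 8 h, and 0 fell at either time, with medians of 0.11 at 14 d and 0.31 at 8 h. Of all genes 1.99% rose at 14 d and 7.92% at 8 h. Penk, the precursor of enkephalins, stood at 9.22, 8.26 and 9.53 on KA 14 d arrays, against 6.50, 6.75 and 6.87 on controls, a rise of 2.30. It rose by 1.13 at 8 h (limma adjusted p = 0.0028). The rise of Vgf, a secreted neuronal protein cut into peptides, was 0.66 at 14 d (adjusted p = 0.020) and 1.13 at 8 h. Npy, Penk and Vgf were thus higher at both times. Crh, Nts, Scg2 and Sst rose by 2.76, 1.76, 2.42 and 0.72 at 8 h and did not pass at 14 d, with differences of 0.11, -0.09, 0.62 and 0.05. The comparisons at the 2 times have no arrays in common, but they share 1 estimate of spread per gene. They are therefore not independent. The number of peptide genes that rose at 14 d was 4 without KA 14 d array 2 and 1 without either of the other KA 14 d arrays or without control 14 d array 1 or 2.

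**Figure D4:**
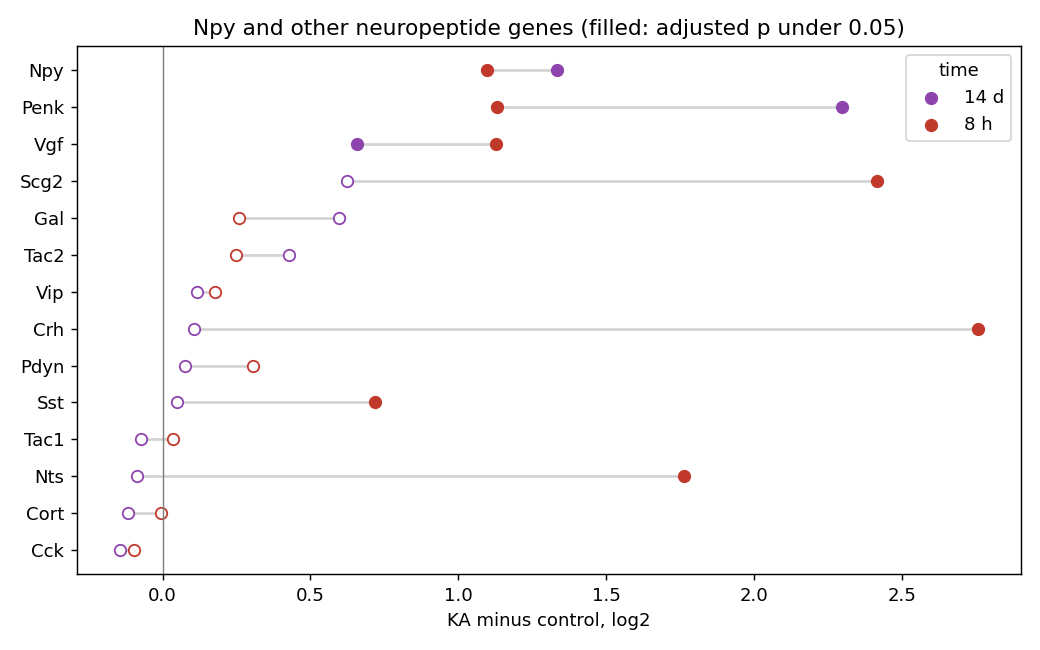
KA minus control on the log2 scale for Npy and 13 other neuropeptide genes, ordered by the change at 14 d. Filled points have a limma adjusted p under 0.05. Npy, Penk and Vgf are filled at both times, while Crh, Nts, Scg2 and Sst are filled only at 8 h.

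The second KA 14 d array was the lowest of its group for 8 of 14 peptide genes, Npy, Penk, Vgf, Scg2 and Sst among them, and not for the other 6, Nts, Pdyn, Tac1, Tac2, Cck and Cort. It was also the lowest for Nptx2 (6.74, against 8.53 and 8.64 on the other KA 14 d arrays), listed as a gene induced by neuronal activity. The same held for Inhba (5.43, against 6.32 and 6.98) and Bdnf (6.49, against 7.27 and 7.76) of that list. For Arc, also of that list, the first KA 14 d array was the lowest (7.63, against 7.67 and 8.84). Its other genes were not counted. Of 11 tested genes of that list, 3 were higher at 14 d, Bdnf by 1.17, Inhba by 1.43 and Nptx2 by 2.32. At 8 h all 11 were higher, with a median difference of 2.88. Of all genes 1.99% were higher at 14 d and 7.92% at 8 h. Of the 275 genes higher at 14 d, the second KA 14 d array was the lowest of its group for 48.0%, against 45.1% of all 13853 genes. What sets it apart was not tested.

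Markers of the interneurons that hold neuropeptide Y were read beside Npy. Of 12 tested such markers, 1 passed at 14 d (Id2, 0.32 higher), and at 8 h 3 rose and 2 fell. Median differences were -0.01 at 14 d and 0.00 at 8 h. Of all genes 1.99% rose and 0.57% fell at 14 d, and 7.92% rose and 9.55% fell at 8 h. Gad1 and Gad2, the enzymes that make GABA, differed by -0.12 and 0.14 at 14 d and by -0.0009 and 0.07 at 8 h, and none of these passed. Somatostatin (Sst), which many of these cells hold, stood at 9.13, 9.18 and 9.14 on KA 8 h arrays, against 8.37, 8.53 and 8.38 on controls. Satb1 and Nos1, markers of the same cells, fell at 8 h by 0.61 and 0.45. The summed level of the 13 markers in the table was 11.79 to 12.19 on KA 14 d arrays, against 11.94 to 12.01 on controls, and 11.92 to 12.06 on KA 8 h arrays, against 11.83 to 11.99 on controls (log2 of summed intensities). The call of Id2 at 14 d was lost when any one of 8 of the 12 arrays was left out, and 3 markers passed without KA 14 d array 2.

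Of 8 markers of other interneurons, 1 passed at 14 d and 3 at 8 h, all lower. The shares of all genes that rose and fell were 1.99% and 0.57% at 14 d, and 7.92% and 9.55% at 8 h. Pvalb, a calcium buffer of fast-spiking interneurons, fell by 0.71 at 14 d (limma adjusted p = 0.0020) and 0.55 at 8 h (adjusted p = 0.0035). Among 10 tested dentate granule cell markers, 2 rose and 1 fell at 14 d, and 3 rose and 3 fell at 8 h. The 2 that rose at both times were Pdzd2 (0.64 at 14 d, 1.02 at 8 h) and C1ql2 (0.48 and 0.34), and the one that fell at both was Dsp (-0.71 and -1.97). Without KA 14 d array 1 none of the 10 passed at 14 d. Prox1, a granule cell transcription factor, differed by 0.18 at 14 d and 0.35 at 8 h and did not pass.

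Of 8 tested markers of CA1 and CA3 pyramidal cells, 2 fell at 14 d, Fibcd1 by 0.96 and Elavl2 by 0.49. At 8 h 2 rose, Nectin3 by 0.74 and Tspan18 by 0.42. The shares of all genes that rose and fell were 1.99% and 0.57% at 14 d, and 7.92% and 9.55% at 8 h. Of 7 tested genes listed as cortex and amygdala markers, 1 fell at 14 d, and at 8 h 2 rose and 1 fell. The one that fell was Lamp5 at both times, by 0.61 (limma adjusted p = 0.0040 at 14 d and 0.00097 at 8 h). Lamp5 was in neither interneuron list, and which cells its fall came from was not tested. Of 6 hypothalamus markers, a region whose arcuate neurons are rich in Npy, 0 passed limma's test at either time, adjusted or not. Their summed level was 7.97 to 8.13 on all KA arrays, against 7.98 to 8.07 on all controls. Of 5 choroid plexus markers 0 passed it either, though their summed level ranged from 9.83 to 12.33 on KA 8 h arrays, against 11.98 to 12.28 on controls. Of 12 glial and vascular markers, 6 rose and 0 fell at 14 d (1.99% and 0.57% of all genes), C1qa by 2.24 and Gfap by 1.75 among them. At 8 h 2 rose, Gfap by 1.02 and Pecam1 by 0.73, and 2 fell, P2ry12 by 1.56 and Mog by 0.69 (7.92% and 9.55% of all genes). Their part in the Npy values was not tested.

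Over the 12 arrays the genes whose level followed Npy most closely were Penk (Pearson r = 0.957), Anxa5 (0.955), Sparc (0.951) and Dhrs1 (0.945). All 12 arrays share the same 4 groups, and these values are descriptions. Npy1r itself correlated with Npy at 0.149. Npy1r was followed most closely by Foxn2 (0.970), Rev3l (0.957), Rnf34 (0.952) and Cep170 (0.95), each highest in its group on the third array in all 4 groups. They were picked for following Npy1r, which has that order itself. For Npy2r the closest were Ap3s2 (0.871), Dnaic2 (0.838), Odf2 (0.837) and 0610040B10Rik (0.835), and for Npy5r Fig4 (0.890), Hltf (0.880), Tada2a (0.850) and Tmem101 (0.844). Both of these receptors were near background.

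**Figure D5:**
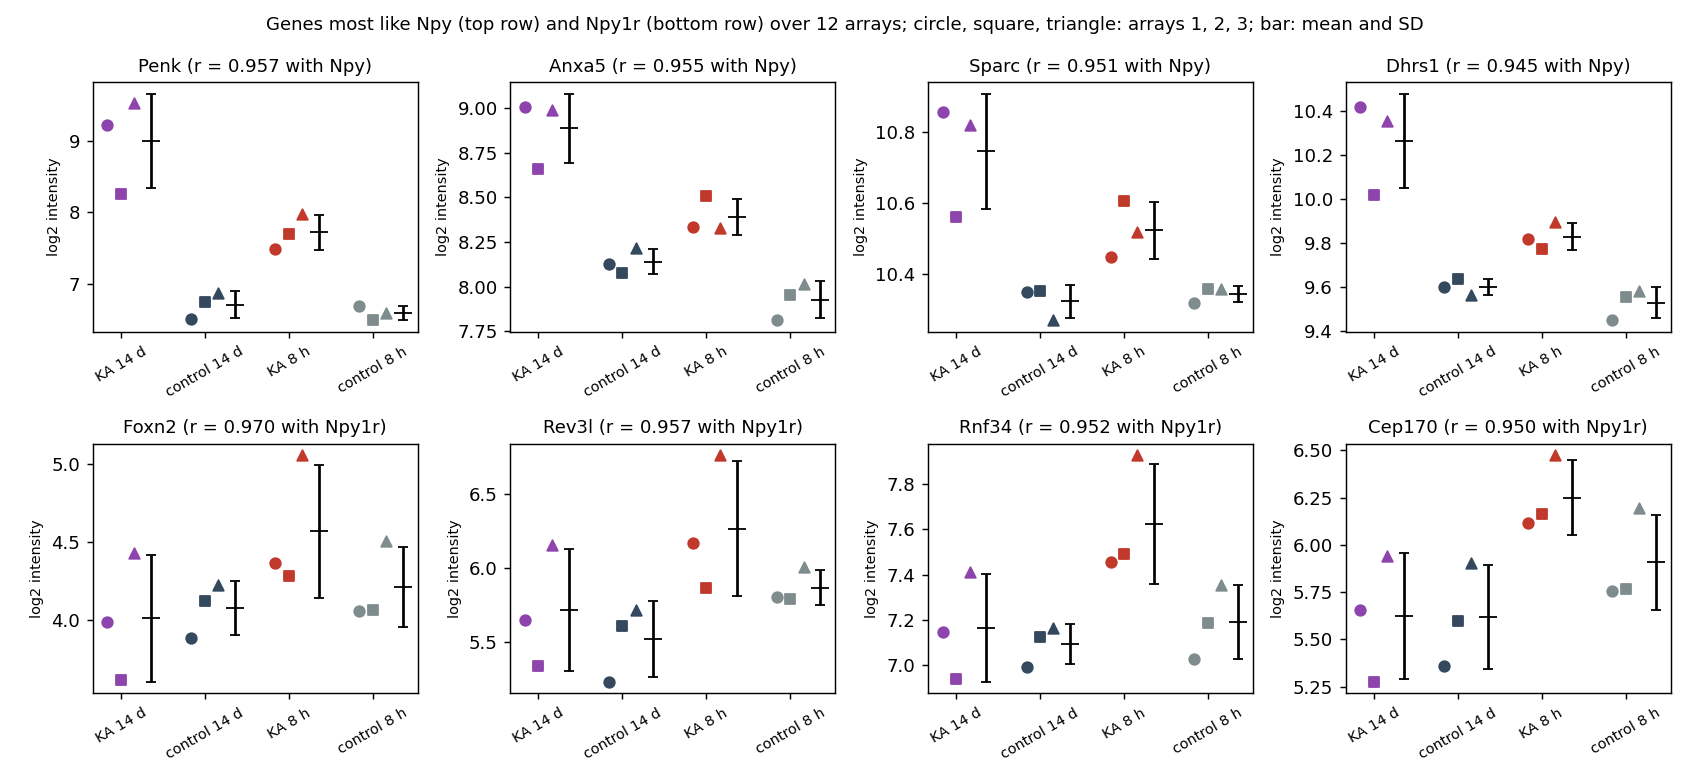
Log2 levels on 12 arrays of the 4 genes most like Npy (top row) and the 4 most like Npy1r (bottom row), with Pearson r over the 12 arrays. Symbols are arrays 1, 2 and 3 of a group, and bars are the mean and SD (n = 3). In the top row the KA 14 d group has the highest mean and its second array is the lowest of the group, as for Npy, and in the bottom row the third array (triangle) is highest in its group.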

How the data were processed

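Hippocampal RNA was read with Affymetrix MG-430 PM mouse arrays, 12 in all, 3 per group, with groups taken from the sample titles. Each began, per the labels, from 5 ng of RNA, went through 22 cycles of amplification and used 8 µg of labelled cDNA. The deposited values are taken as log2 intensities made by the authors, since the submitters' processing notes name RMA and affy, with no version. The table's scale is not given in the sources used here. Its values ran from 2.63 to 13.2. "Input" in the titles was not interpreted. No 2 arrays were identical.

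Symbols came from an older probe annotation checked against GRCm38.p6: of 45141 probe sets, 104 were array controls, 28898 had 1 symbol, 551 several and 15588 none. The brightest probe set by mean stood for each of 17097 genes. The filter at the 30th percentile of an array (4.08 to 4.15, log2), passed on at least 3 arrays, left 13853 genes. Background was read from 23 nonspecific control probe sets, with GC-rich meaning 18 to 25 G or C bases per probe and less GC-rich 10 to 14.

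The model, in limma 3.58.1 under R 4.3.3, had one mean for every group and used eBayes (8 residual degrees of freedom before moderation), for 5 two-sided comparisons, with Benjamini-Hochberg adjustment over all genes tested and calls at an adjusted p under 0.05. Genes below the filter were fitted without it. The number of arrays limits the precision.

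The members and the gene lists were chosen with earlier results of these data known. The naming rule took the members, the rest of the family, up to 4 genes of each list by adjusted p at each time, and the 4 genes most correlated with each member. Genes named beyond it (Adcy8, Cpe, Dpp4, Gad1, Gad2, Gnaz and Prox1) were chosen after their values were seen. Pdyn, Tac1, Tac2, Cck and Cort, also outside the rule, were named for their levels on the KA 14 d arrays. Alternatives covered the filter, probe set choice, normalization, the model, the array number as a block, and each array left out. As a check of pairing, deviations of same-numbered arrays from their group means were correlated. Between KA 8 h and control 8 h arrays the values were 0.155, 0.138 and 0.413, all above 0.1. At 14 d they were 0.164, 0.0684 and 0.463. Between the 2 times, same-numbered control arrays correlated at 0.163, 0.0363 and 0.401, and KA arrays at -0.0041, 0.168 and 0.526. Arrays of different times are no KA and control pairs, so these values do not settle pairing. The labels state none.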

Additional observations from a re-analysis of the deposited data

Results flagged for a closer look

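Differences between the KA change at 14 d and at 8 h (14 d minus 8 h, log2) passed the limma test for no member. They passed for the 27 genes below, among the genes chosen by the naming rule. Of all genes 5.52% passed. The rule picked list genes by adjusted p at 8 h or at 14 d, so the 27 do not measure how often genes differ between times. All these differences include the KA 8 h arrays, where sex and KA cannot be told apart. Among genes for peptide processing and for peptides, Pcsk1 differed by -2.20, Pam by -0.76, Crh by -2.65, Scg2 by -1.79, Nts by -1.85, Sst by -0.67 and Penk by 1.17. Penk was the only one of these 7 whose change was larger at 14 d. Among interneuron, granule and pyramidal cell markers, Id2 differed by -0.58, Nos1 by 0.46, Dsp by 1.26, Stxbp6 by 0.82, Nectin3 by -0.83, Tspan18 by -0.86 and Fibcd1 by -0.62. The activity-induced genes Inhba, Arc, Bdnf and Nptx2 differed by -3.47, -3.16, -1.71 and -1.76. All 11 tested genes of that list passed, beside 5.52% of all genes. Fezf2 differed by -1.53. The glial genes P2ry12, Gfap, C1qa, Aqp4 and Cx3cr1 differed by 1.997, 0.73, 2.02, 0.72 and 0.84, and the endothelial gene Pecam1 by -0.66. Xist differed by -3.48 and the Y-linked Eif2s3y by 1.51. For some of these genes the control groups differed as well. Arc and Dsp controls were 1.82 higher and 0.99 lower at 14 d than at 8 h (limma adjusted p = 0.000996 and 0.0072). KA arrays differed between the times by -1.34 for Arc and 0.27 for Dsp. Pcsk1 and P2ry12 controls were 0.51 and 0.58 higher at 14 d (limma adjusted p = 0.013 and 0.029).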

How the results depend on the processing

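The rise of Npy passed the test under all 25 alternatives, from 1.09 to 1.74 at 14 d and from 1.01 to 1.19 at 8 h (log2; adjusted p up to 0.0192 and 0.0129). Npy has 1 probe set, and many of these alternatives, such as other filters, left its differences at 1.33 and 1.10. The difference of its 2 rises was 0.70 with array weights, whose estimation stopped before its tolerance (adjusted p = 0.029), and -0.011 to 0.60 with each array left out. Between controls it was 0.36 with only those groups (adjusted p = 0.029). KA 14 d minus KA 8 h for Npy passed under cyclic loess (0.57), array weights (1.04) and the replicate block (0.60), and ran from 0.35 to 0.96 with each array left out. For Npy1r it passed under cyclic loess (-0.37), the replicate block (-0.35) and without KA 14 d array 3 (-0.44, adjusted p = 0.031), ran from -0.44 to -0.21 with each array left out, and was -0.14 as the mean of both probe sets. Same-numbered arrays of these groups correlated at -0.0041, 0.168 and 0.526. Npy1r at 14 d ran from -0.065 to 0.14 and was -0.012 without the third arrays. Npy5r at 14 d ran from -0.048 to 0.0098, and its difference of changes was -0.0062 without the third arrays. The cause was not tested.

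Genes called, in the order 14 d, 8 h, difference of changes, controls, KA 14 d minus KA 8 h, numbered 354, 2420, 764, 249 and 2546. Testing all probe sets gave 551, 4843, 1478, 445 and 4903. An adjusted p under 0.01 gave 170, 1352, 346, 64 and 1417. Array weights gave 2099, 2168, 1336 and 4242 for all but 8 h. The replicate block gave 599, 1214 and 570 for 14 d, the difference and the controls, and moved no other count by over 1.5 times. Only the groups compared gave 543 for the controls and 1665 for KA 14 d minus KA 8 h. With each array left out the counts ran from 196 to 454, 1658 to 2747, 508 to 899, 86 to 421 and 1776 to 2567. Of the marker lists, those of CA1 and CA3 then had 1 to 3 genes lower at 14 d and 1 to 2 higher and 0 to 2 lower at 8 h, those of granule cells 0 to 2 higher and 0 to 1 lower at 14 d and 1 to 4 higher at 8 h, those of cortex and amygdala 1 to 3 lower at both times and 1 to 2 higher at 8 h, and those of other interneurons 1 to 2 lower at 14 d.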
